A study of Homo sapiens with 9 samples.

Results

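The desmosome is the button-like junction that ties the keratin filaments of neighbouring epithelial cells to each other. The genes described here are 10 that encode its proteins, DSG2, DSG3, DSC2, DSC3, JUP, PKP1, PKP2, PKP3, DSP and PERP, chosen by name. All 10 were found among the 18064 rows of the deposited expression table, and each reached 1 FPKM (fragments per kilobase of transcript, scaled to the mapped total) in all 9 libraries. The libraries are of human cells. Their titles give MDA-MB-231/PTX, which the design text calls resistant to paclitaxel, a derivative of MDA-MB-231, a widely used triple-negative breast cancer line, grown in RPMI medium with fetal bovine serum. By the titles, 3 libraries received a control siRNA (si-NC), 3 the siRNA si1-BCLIN25 and 3 the siRNA si2-BCLIN25, both titled as against the RNA BCLIN25, whose level was not analysed here. Source and treatment fields of the same libraries instead name PC9/GR, a gefitinib-resistant lung adenocarcinoma line, with short hairpins sh1-HUMT, sh2-HUMT and shNC, so neither the cells nor the target are settled by the labels. No label says that the libraries of a group were separate cultures, so the p-values reflect the spread among these libraries alone, which may be technical. The table's header gives a prefix (X812) to the si-NC columns alone. Its meaning is not known, and any difference it may mark cannot be told apart from the group.

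In a desmosome, cadherins of 2 kinds, the desmogleins and the desmocollins, bind across the gap between cells. Inside the cell their tails hold plakoglobin (JUP) and the plakophilins, armadillo-repeat proteins, which in turn hold desmoplakin (DSP), the plakin that grips the keratin filaments. Simple epithelia and heart muscle build desmosomes mainly from DSG2, DSC2 and PKP2, whereas the basal and lower layers of stratified epithelia such as skin add DSG3, DSC3 and PKP1. PERP, a small membrane protein that p63 activates, is needed for firm desmosomes in the mouse epidermis.

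The genes differed widely in level, and FPKM, being per transcript length, allows them to be set side by side. In si-NC the order of mean FPKM ran from PERP (260.4 ± 8.5) through JUP (97.1 ± 8.7), DSG2 (39.3 ± 0.81), DSP (26.3 ± 0.085), PKP3 (15.2 ± 0.83), DSC2 (12.9 ± 1.2), PKP2 (6.46 ± 0.38), DSG3 (4.08 ± 0.23) and DSC3 (3.20 ± 0.095) to PKP1 (3.10 ± 0.17; SD, n = 3 each). Only the neighbours DSC3 and PKP1 overlapped in this order. The control cells therefore held transcripts of both sets of desmosome genes, with DSG3, DSC3 and PKP1 at the bottom of the order. In both siRNA groups these 3 genes stood above PKP2, which came last. PKP3 and DSC2 overlapped there in both groups, and DSC3 and PKP1 in si2-BCLIN25.

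Most of the 10 genes were higher in the siRNA groups. In a limma model of log2(FPKM + 1) over all genes, with a Benjamini-Hochberg adjusted p under 0.05 as the threshold, 8 of 10 rose with si1-BCLIN25 and 9 of 10 with si2-BCLIN25, and none fell, all 10 fold changes being above 0 in both. Of the 12317 genes tested, 38.4% and 38.6% rose, 24.6% and 24.4% fell, and 63.1% and 63% were called in either direction. A call alone thus says little in these libraries, and the size of a change says more. The median log2 fold change of the 10 genes was 0.57 in si1-BCLIN25 and 0.58 in si2-BCLIN25, against 0.06 over all genes tested in each. In each siRNA group 4 of the 10, namely DSG3, DSC3, PKP1 and JUP, rose at least 2-fold, as did 2.75% and 2.79% of all genes. JUP sat on that limit, at 1.00 on the log2 scale in both groups. Over the 16 alternatives it ran from 0.94 to 1.07 with si1-BCLIN25 and from 0.94 to 1.06 with si2-BCLIN25, lying below 1 in 4 of them in either group and lowest in both without si-NC replicate 1. The libraries of 8 genes did not overlap between si1-BCLIN25 and si-NC and those of 9 did not between si2-BCLIN25 and si-NC, as for 64.7% and 67.1% of all genes tested. The siRNA groups share their controls, so their values against si-NC are not independent of each other.

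**Figure D1:**
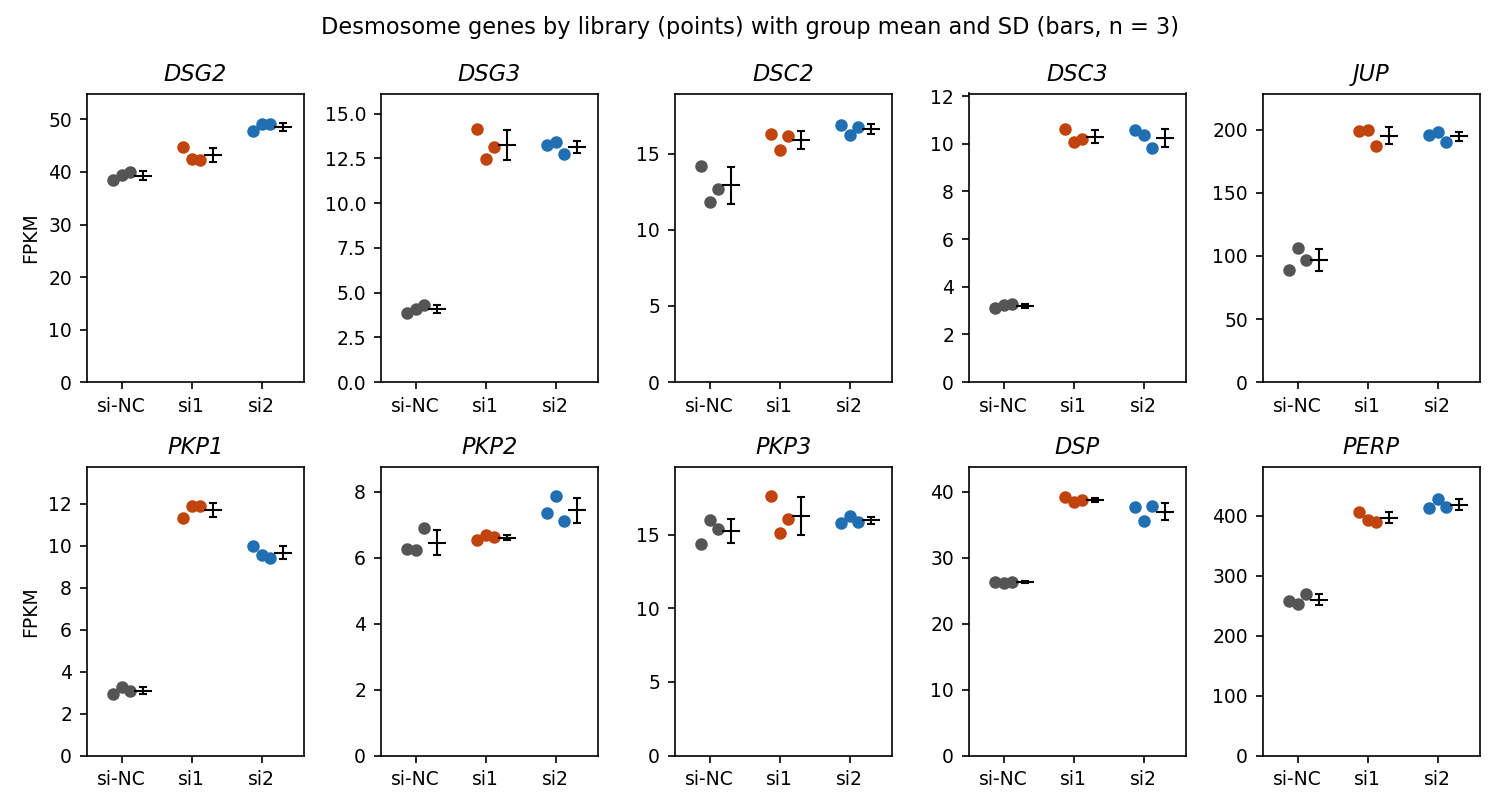
FPKM (vertical axes, each from 0) of the 10 desmosome genes in the 9 libraries, with si1 for si1-BCLIN25 and si2 for si2-BCLIN25; points are libraries and bars the mean and SD of 3. DSG3, DSC3, PKP1 and JUP stand well above si-NC in both siRNA groups, while PKP3 overlaps with si-NC in both.

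The desmogleins are the cadherins that give desmosomes much of their adhesive strength. DSG3 (gene 1830), the desmoglein of lower stratified layers and the autoantigen of pemphigus vulgaris, was at 3.84, 4.09 and 4.30 FPKM in the si-NC libraries, 14.2, 12.5 and 13.2 in si1-BCLIN25 and 13.3, 13.4 and 12.8 in si2-BCLIN25. All 6 siRNA libraries lay above all si-NC libraries, and the siRNA groups overlapped with each other. The means rose 3.25-fold and 3.22-fold, with log2 fold changes of 1.49 and 1.48 (SE 0.056, adjusted p = 2.4e-10 and 2.9e-10 in limma). Only 1.01% and 0.942% of tested genes had a larger log2 fold change. DSG2 (gene 1829), the desmoglein of all tissues with desmosomes, was at 38.5, 39.3 and 40.1 FPKM in si-NC, 44.7, 42.5 and 42.4 with si1-BCLIN25 and 47.8, 49.1 and 49.1 with si2-BCLIN25. The 3 groups did not overlap, but the steps were small, with log2 fold changes of 0.13 and 0.30 (SE 0.036, adjusted p = 0.00625 and 1.3e-05 in limma). In si1-BCLIN25 the 95% interval of DSG3 ran from 1.37 to 1.61 and that of DSG2 from 0.055 to 0.21. DSG2 remained the more abundant desmoglein in every library.

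Desmocollins pair with desmogleins across the junction, and here too the form of stratified epithelium rose more. DSC3 (gene 1825), whose loss in mouse skin causes blistering, was at 3.09, 3.23 and 3.27 FPKM in si-NC, 10.6, 10.1 and 10.2 with si1-BCLIN25 and 10.6, 10.4 and 9.84 with si2-BCLIN25. Its siRNA libraries were all far above si-NC and overlapped between the siRNAs. The rise was 3.22-fold and 3.21-fold in the means, or 1.43 and 1.42 on the log2 scale (SE 0.049, adjusted p = 1.1e-10 and 1.3e-10 in limma). DSC2 (gene 1824), the broadly expressed desmocollin, was at 14.2, 11.8 and 12.7 FPKM in si-NC, 16.3, 15.2 and 16.2 with si1-BCLIN25 and 16.9, 16.3 and 16.7 with si2-BCLIN25. The siRNA libraries again lay above si-NC without overlap, with log2 fold changes of 0.28 and 0.34 (SE 0.058, adjusted p = 0.00103 and 0.000229 in limma).

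**Figure D2:**
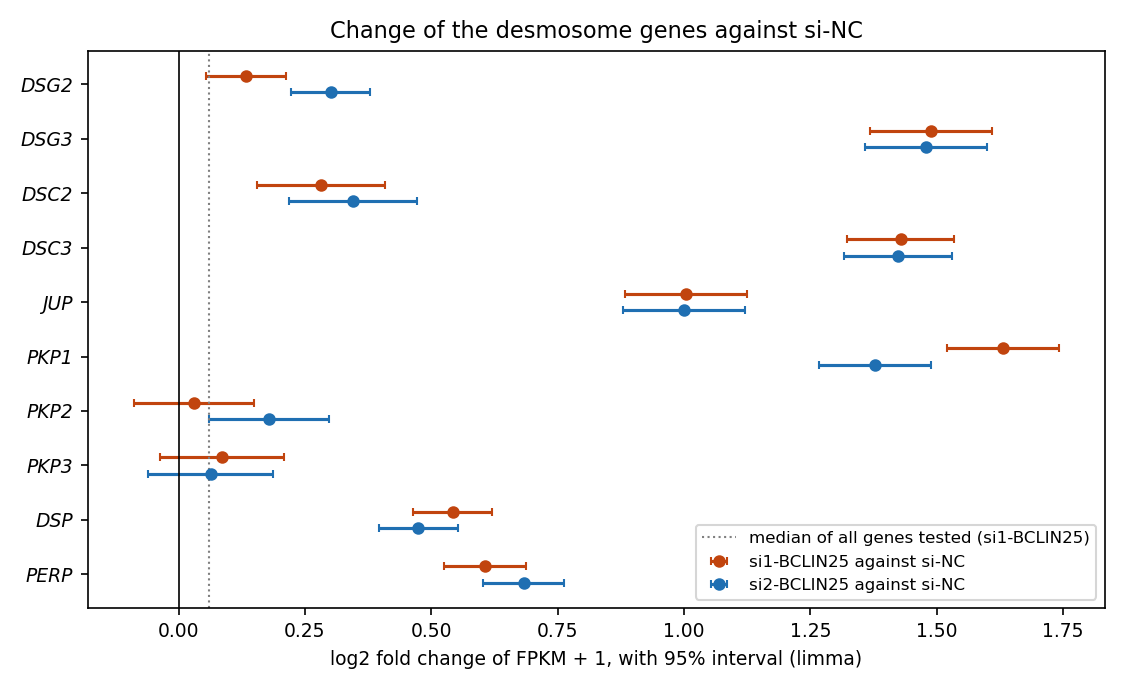
Log2 fold change of FPKM + 1 against si-NC (horizontal axis) for each desmosome gene, with the 95% interval from limma; the dotted line is the median of all genes tested in si1-BCLIN25, 0.06. DSG3, DSC3 and PKP1 lie between 1.38 and 1.63, whereas DSG2, DSC2, PKP2 and PKP3 lie at or below 0.34.

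These 4 genes lie in the desmosomal cadherin cluster on chromosome 18, and the windows around their annotated starts are shown as a description. Whether the windows bear on the different sizes of change was not tested. RefSeq's promoter windows (GRCh38.p14) hold 250 bases before and 50 after the start, on the gene's strand. Capitals mark matches on either strand to the p53-family decamer or to the E-box CACCTG, a core bound by SNAI and ZEB repressors. The decamer is only a part of the element that p53, p63 and p73 recognise, so a single match is not a full element.
DSG3, chr18:31447491-31447790, plus strand: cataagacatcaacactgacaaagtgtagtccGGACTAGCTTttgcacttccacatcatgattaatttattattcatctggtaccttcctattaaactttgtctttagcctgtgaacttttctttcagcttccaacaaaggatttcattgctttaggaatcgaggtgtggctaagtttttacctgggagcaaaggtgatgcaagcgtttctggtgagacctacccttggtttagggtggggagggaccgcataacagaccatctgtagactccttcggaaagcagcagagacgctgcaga
DSG2, chr18:31497927-31498226, plus strand: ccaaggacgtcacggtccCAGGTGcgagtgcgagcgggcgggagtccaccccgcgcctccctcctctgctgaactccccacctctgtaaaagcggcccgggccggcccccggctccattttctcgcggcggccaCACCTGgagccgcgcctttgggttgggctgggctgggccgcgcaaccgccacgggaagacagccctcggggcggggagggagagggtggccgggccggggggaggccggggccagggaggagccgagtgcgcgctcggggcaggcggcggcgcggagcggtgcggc
DSC3, chr18:31042693-31042992, minus strand: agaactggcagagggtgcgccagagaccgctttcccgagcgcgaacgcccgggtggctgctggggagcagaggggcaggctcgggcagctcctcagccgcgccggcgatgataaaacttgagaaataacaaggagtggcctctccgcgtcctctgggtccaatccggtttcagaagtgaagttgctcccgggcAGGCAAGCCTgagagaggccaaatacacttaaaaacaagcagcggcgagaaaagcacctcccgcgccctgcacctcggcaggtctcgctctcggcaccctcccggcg
DSC2, chr18:31102372-31102671, minus strand: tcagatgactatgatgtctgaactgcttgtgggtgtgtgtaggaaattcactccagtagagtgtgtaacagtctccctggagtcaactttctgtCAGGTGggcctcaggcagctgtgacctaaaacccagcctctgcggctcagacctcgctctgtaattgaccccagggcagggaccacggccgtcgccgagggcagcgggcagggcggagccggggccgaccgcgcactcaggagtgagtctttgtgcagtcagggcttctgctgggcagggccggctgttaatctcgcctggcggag

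The DSG3 and DSC3 windows each held 1 match to the p53-family decamer and none to CACCTG, while the DSG2 and DSC2 windows held 2 and 1 matches to CACCTG and none to the decamer. On both strands, the decamer occurred in 5.24% of the 10061 windows of tested genes, CACCTG in 18.2% and the GC box GGGCGG in 70.6%. A GC box was found 2 times in the DSG2 window and 1 time in the DSC2 window, and not in those of DSG3 and DSC3. DSG3's window was poor in G and C, at 44.0%, below all but 3.57% of these windows, against 63.3% for DSC3, 60.7% for DSC2 and 76.7% for DSG2. The last 20 bases of the DSG3 window were in no GENCODE 29 transcript of the gene, so its start may differ between annotations. Among 8 of the 10 genes with a window, PKP1 had no match to the decamer, CACCTG or the AP-1 motif TGANTCA, DSP had 2 to CACCTG, JUP none of these 3, and PERP 1 to TGANTCA, which 4.48% of windows held. A match in letters describes the window only. PKP2 and PKP3 had no entry.

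The armadillo proteins join the cadherin tails to desmoplakin. JUP (gene 3728), plakoglobin, which also serves adherens junctions, was at 88.7, 106 and 96.7 FPKM in si-NC, 199, 199 and 187 with si1-BCLIN25 and 196, 198 and 191 with si2-BCLIN25. All siRNA libraries lay above all controls, and the rise of 2.01-fold in the means of both groups had an SE of 0.055 on the log2 scale (limma adjusted p = 9.9e-09 and 1.1e-08). PKP1 (gene 5317), the plakophilin of stratified epithelia whose loss causes ectodermal dysplasia with skin fragility, was at 2.95, 3.28 and 3.07 FPKM in si-NC, 11.3, 11.9 and 11.9 with si1-BCLIN25 and 10.0, 9.54 and 9.43 with si2-BCLIN25. It had the largest log2 fold change of the 10 in si1-BCLIN25, 1.63, and stood at 1.38 in si2-BCLIN25 (SE 0.051, adjusted p = 4.9e-11 and 2.4e-10 in limma). The 3 groups did not overlap, si2-BCLIN25 lying between si-NC and si1-BCLIN25.

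The other two plakophilins moved little. PKP2 (gene 5318), the form of simple epithelia and heart, was at 6.25, 6.22 and 6.90 FPKM in si-NC, 6.54, 6.67 and 6.61 with si1-BCLIN25 and 7.34, 7.86 and 7.12 with si2-BCLIN25. The si1-BCLIN25 libraries lay inside the range of si-NC, with a log2 fold change of 0.030 (95% interval -0.089 to 0.15, adjusted p = 0.649 in limma) that turned negative after quantile normalization (-0.047). In si2-BCLIN25 PKP2 rose by 0.18 (SE 0.054, adjusted p = 0.0123 in limma), a call lost after quantile normalization (adjusted p = 0.150) and without si2-BCLIN25 replicate 2 (adjusted p = 0.0607), the 16 alternatives giving 0.00532 to 0.150. PKP3 (gene 11187), present in most epithelia, was at 14.4, 16.0 and 15.4 FPKM in si-NC, 17.6, 15.1 and 16.0 with si1-BCLIN25 and 15.8, 16.3 and 15.8 with si2-BCLIN25. Its groups overlapped throughout, with log2 fold changes of 0.086 (95% interval -0.037 to 0.21, adjusted p = 0.202 in limma) and 0.063 (-0.060 to 0.19, adjusted p = 0.348).

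Desmoplakin and PERP rose by an intermediate amount. DSP (gene 1832), without which no keratin reaches the junction, was at 26.4, 26.2 and 26.4 FPKM in si-NC, 39.1, 38.5 and 38.8 with si1-BCLIN25 and 37.7, 35.5 and 37.8 with si2-BCLIN25. The controls were nearly equal and all siRNA libraries were above them, by 0.54 and 0.47 on the log2 scale (SE 0.036, adjusted p = 5.7e-08 and 2.1e-07 in limma). PERP (gene 64065) was at 258, 253 and 269.8 FPKM in si-NC, 407, 394 and 390.3 with si1-BCLIN25 and 412, 429 and 414 with si2-BCLIN25. It was the most abundant of the 10 in every library, and no siRNA library reached down to si-NC, with log2 fold changes of 0.61 and 0.68 (SE 0.037, adjusted p = 2.6e-08 and 9.5e-09 in limma). Larger log2 fold changes were found in 10.2% and 12.7% of tested genes for DSP and in 8.08% and 6.52% for PERP.

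**Figure D3:**
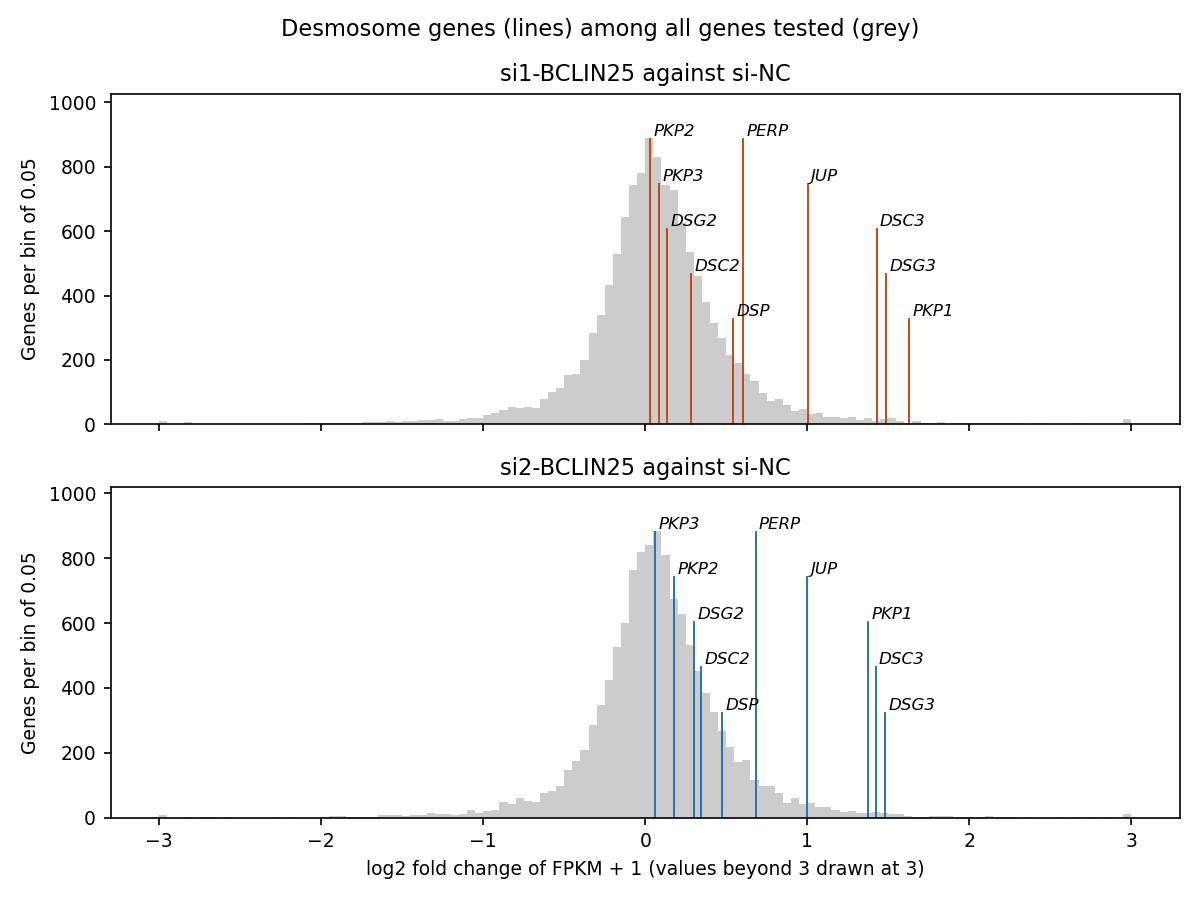
Number of tested genes (vertical axis, bins of 0.05) by log2 fold change of FPKM + 1 against si-NC (horizontal axis), grey, with a line at each desmosome gene; the heights of the lines carry no value. PKP2 and PKP3 sit near the peak of the distribution, and DSG3, DSC3 and PKP1 in its upper tail.

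With larger rises of the stratified forms than of their paralogs, the make-up of the desmosome transcripts differed between groups. The ratio of DSG3 to DSG2 FPKM was 0.0998, 0.104 and 0.107 in the si-NC libraries, 0.316, 0.293 and 0.311 in si1-BCLIN25 and 0.278, 0.273 and 0.260 in si2-BCLIN25. The ratio of DSC3 to DSC2 was 0.217, 0.273 and 0.257 in si-NC, 0.652, 0.661 and 0.633 with si1-BCLIN25 and 0.625, 0.638 and 0.588 with si2-BCLIN25. PKP1 to PKP2 moved from 0.472, 0.527 and 0.445 in si-NC, where PKP2 was the more abundant, to 1.73, 1.78 and 1.80 with si1-BCLIN25 and 1.36, 1.21 and 1.32 with si2-BCLIN25, where PKP1 was. None of the 3 ratios overlapped between si-NC and either siRNA group. For each ratio and siRNA, 6 comparisons in all, an exact two-sided permutation test of the log2 ratio gave p = 0.1, also after adjustment over the 6, which is the smallest p that 3 libraries against 3 allow and does not pass the threshold.

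Over the 4 cadherins together, the summed level was 59.5 ± 0.95 FPKM in si-NC, 82.6 ± 2.8 with si1-BCLIN25 and 88.7 ± 0.38 with si2-BCLIN25 (SD, n = 3 each). DSG2 supplied 66.1% ± 1.4 of that sum in si-NC, 52.3% ± 0.64 with si1-BCLIN25 and 54.9% ± 0.79 with si2-BCLIN25, while DSG3 supplied 6.85% ± 0.36, 16.0% ± 0.49 and 14.8% ± 0.35. DSC3 went from 5.37% ± 0.17 to 12.5% ± 0.078 and 11.6% ± 0.41, and DSC2 from 21.7% ± 1.9 to 19.2% ± 0.43 and 18.8% ± 0.45. The share of DSC2 lay between 20.2% and 23.8% in si-NC and was lower in all 6 siRNA libraries, at 18.2% to 19.7%. Among the 3 plakophilins PKP3 remained the most abundant, with 61.5% ± 1.2 of the summed FPKM in si-NC, 47.0% ± 2.5 with si1-BCLIN25 and 48.3% ± 0.60 with si2-BCLIN25.

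**Figure D4:**
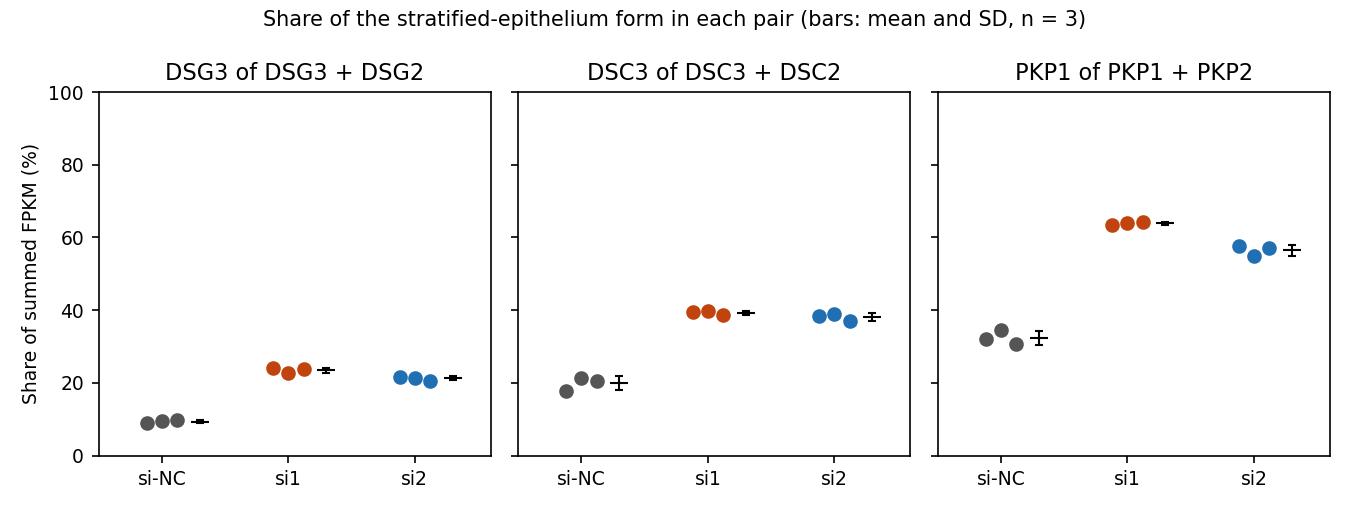
Share of the stratified-epithelium form in the summed FPKM of each pair (vertical axis, percent) for DSG3 with DSG2, DSC3 with DSC2 and PKP1 with PKP2, with si1 for si1-BCLIN25 and si2 for si2-BCLIN25; points are libraries and bars the mean and SD of 3. PKP1's share passes from 32.5% in si-NC to 63.9% and 56.5%, the only pair in which the more abundant form changes.

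Between the siRNAs the largest difference of a desmosome gene was 0.25 on the log2 scale, for PKP1. Of the 10, 0 passed the threshold in limma for si2-BCLIN25 against si1-BCLIN25, as 0.585% of all genes did, and 3 had an unadjusted p under 0.05 (17.8% of all genes). The closest was PKP1, lower in si2-BCLIN25 by 0.25 on the log2 scale (95% interval 0.14 to 0.36 lower, adjusted p = 0.0514 in limma). DSG2 was higher by 0.17 (95% interval 0.089 to 0.25, adjusted p = 0.0621) and PKP2 by 0.15 (0.030 to 0.27, adjusted p = 0.192). PKP1 was called after quantile normalization (adjusted p = 0.0338), with a minimum of 5 FPKM (0.0403), with only the 2 groups in the fit (0.033) and without si-NC replicate 1 (0.0416) or 2 (0.0454), within a range of 0.033 to 0.206. DSG2 was called with the minimum of 5 FPKM (0.0498) and with only the 2 groups (0.0453), within 0.0453 to 0.22. For DSG3 the interval of the difference ran from -0.13 to 0.11, for DSC3 from -0.11 to 0.10 and for JUP from -0.12 to 0.12. The libraries of 5 genes (DSP, DSG2, PKP1, PKP2 and PERP) did not overlap between the siRNAs, as for 25.9% of all genes.

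Other desmosome genes were low or went the other way. DSC1, the desmocollin of upper epidermal layers, lay between 0.09 and 0.21 FPKM, CDSN, the corneodesmosome protein of the horny layer, between 0.11 and 0.40, and DSG4, the desmoglein of hair, at or below 0.01. PKP4, a p120-related protein also found at desmosomes, was at 32.2 ± 1.4 FPKM in si-NC and fell by 0.37 and 0.44 on the log2 scale (limma adjusted p = 9.1e-06 and 1.8e-06). DSG1 was not analysed here.

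Across all genes tested, 38.4% rose with si1-BCLIN25 and 38.6% with si2-BCLIN25, and 24.6% and 24.4% fell. Of 10 filament and linker genes listed beside the desmosome, 2 rose and 6 fell with either siRNA, at a median log2 fold change of -0.20 in both. The 2 that rose were basal keratins: KRT5 went from 199 to 1318 and 1210.1 FPKM, and KRT14 from 0.52 to 23.7 and 19.4, a value uncertain because near-identical keratins and pseudogenes share reads. The simple keratin KRT18 fell from 299.8 to 175 and 178 FPKM, and vimentin (VIM), the filament of mesenchymal cells, from 80.9 to 14.2 and 22.4. The plakins nearest to DSP, PPL and EVPL, passed the threshold in neither group, with log2 fold changes of 0.037 and 0.16 for PPL and 0.15 and 0.11 for EVPL.

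Of 10 adherens junction genes, 6 rose and 4 fell in each group, with medians of 0.41 and 0.37. The shares over all genes tested were 38.4% and 38.6% higher and 24.6% and 24.4% lower. The catenin CTNND1 rose from 52.8 to 86.2 and 84.7 FPKM, P-cadherin (CDH3) from 43.7 to 69.9 and 66.8 and NECTIN4 from 0.73 to 3.31 and 3.12, while the nectin partner AFDN fell from 19.9 to 12.8 and 13.4. Of 18 genes of desmosome assembly, traffic and turnover, 7 rose in each group, and 7 fell with si1-BCLIN25 and 6 with si2-BCLIN25, with medians of 0.0053 and 0.019. Among them the growth factor receptor EGFR fell from 56.9 to 35.9 and 36.3 FPKM, the desmoglein-binding flotillin FLOT2 from 36.4 to 23.1 and 23.5 and the calcium pump ATP2C1, mutated in Hailey-Hailey disease, from 77.2 to 59.8 and 59.2. Caveolin CAV1 rose from 282 to 366 and 383.

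Of 14 listed transcription factors, 11 were tested, of which 6 rose in each group, and 3 fell with si1-BCLIN25 and 4 with si2-BCLIN25, with medians of 0.29 and 0.23. Among all genes tested 38.4% and 38.6% rose and 24.6% and 24.4% fell. TP63, the master regulator of stratified epithelium, rose from 31.1 to 63.4 and 64.4 FPKM, by 1.00 and 1.03 on the log2 scale. GRHL1, an activator of desmoglein genes, rose from 1.69 to 4.18 and 4.67 FPKM and KLF5 from 154 to 230 and 236, whereas the repressor SNAI2 fell from 78.7 to 57.8 and 56.3. Of the ZEB repressors of junction genes, ZEB1 stayed at or below 0.14 FPKM in all libraries, and ZEB2 was at 0.93 to 1.16 FPKM in si-NC, 1.18 to 1.67 with si1-BCLIN25 and 1.35 to 1.44 with si2-BCLIN25, a rise in each (log2 fold changes of 0.29 and 0.23, limma adjusted p = 0.0137 and 0.0379).

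Markers of stratified squamous epithelium rose, as did most but not all of the desmosome genes. All 12 tested of 13 listed rose in each siRNA group, TP63, KRT5 and KRT14 among them. Over all tested genes 38.4% and 38.6% rose and 24.6% and 24.4% fell. The summed level of the stratified markers was 548 to 567 FPKM in si-NC, 2037 to 2184 with si1-BCLIN25 and 1956 to 1965 with si2-BCLIN25. Most of their higher sum came from KRT5, from 199 to 1318 and 1210 FPKM, with KRT6A going from 272 to 494 and 487. In bulk RNA more cells of a type and more RNA per cell cannot be told apart, and the part of this shift in the desmosome values was not tested. Of 6 simple-epithelium markers 2 rose and 4 fell in each group, with sums of 1629.7 to 1718, 2344 to 2544 and 2301 to 2385 FPKM. The higher sums came almost wholly from KRT19, at 688 FPKM in si-NC and 1665 and 1555 in the siRNA groups, with CLDN7 going from 46.4 to 57.9 and 59.8, while KRT8, KRT18, EPCAM and CLDN4 fell. The markers of heart muscle, the other tissue rich in desmosomes, were near 0, DES at or below 0.03 FPKM and the 5 analysed together at or below 0.97. Fibroblast markers summed to 3.64 to 4.73 FPKM in si-NC, 14.4 to 15.1 with si1-BCLIN25 and 12.7 to 13.7 with si2-BCLIN25, and the 2 of 6 that were tested rose in both groups. These were COL1A1, from 3.75 to 9.32 and 8.67 FPKM, and LUM, from 0.50 to 4.97 and 4.01, while COL1A2 and COL3A1 stayed at or below 0.04 in all libraries. The part of fibroblast markers in the desmosome values was not tested. Melanocyte markers summed to 2.02 at most. Endothelial markers summed to 0.60 at most. Leukocyte markers summed to 57.5 to 62.7, 45.9 to 47.0 and 41.6 to 41.7 FPKM, nearly all from LAPTM5. As for the line, the listed markers match neither of the names in the labels in full, as markers on each line's list were low or nearly absent. Of 8 MDA-MB-231 markers ZEB1 and SPARC stayed at or below 0.14 FPKM, and of the 6 tested 1 rose and 5 fell in each group. MSN fell from 72.9 FPKM in si-NC to 3.98 with si1-BCLIN25 and 4.15 with si2-BCLIN25. In the same order FOSL1 went from 186 to 31.5 and 37.6 and CD44 from 208 to 59.8 and 60.5. AXL went from 97.0 to 51.3 and 58.9 and VIM from 80.9 to 14.2 and 22.4. CAV1 was the 1 that rose, from 282 to 366 and 383. Of 7 PC9 markers NKX2-1 and NAPSA stayed at or below 0.78 FPKM and SFTPB lay between 0.75 and 1.96. EPCAM was at 139, ESRP1 at 53.4, CLDN4 at 45.9 and CDH1 at 31.7 in si-NC. These are epithelial genes, whereas MDA-MB-231 is known as a mesenchymal-like line. Of the 5 PC9 markers tested 3 rose and 2 fell in each group. EPCAM and CLDN4 are also on the simple-epithelium list. Among the stratified markers, on neither line's list, KRT6A was at 272, KRT5 at 199 and TP63 at 31.1 FPKM in si-NC. KRT14 was at 0.52 and KRT13 at 0.22 there.

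Neighbours on the chromosome had smaller median changes than most of these genes. The 20 tested genes nearest to the cadherin cluster, from LAMA3 to GALNT1 and not desmosomal, had median log2 fold changes of 0.092 and 0.053, with 10 and 9 higher and 6 and 5 lower. Medians around PKP1 were 0.12 and 0.16, around PERP 0.16 and 0.15, around DSP 0.0017 and 0.092 and around PKP2 0.033 and 0.061. The median around JUP was 0.30 and 0.33, with 15 and 12 of 20 higher, and that stretch of chromosome 17 holds type I keratin genes, KRT14 among them. The 16 neighbours of PKP3, which lies near the end of chromosome 11, had medians of -0.052 and -0.028.

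Likeness to other genes was measured as the mean absolute difference in log2(FPKM + 1) over the 9 libraries, each gene centred on its si-NC mean. Closest to PERP, the most abundant of the 10, were the peptidase ERAP2 (0.018), the secreted glycoprotein CREG1 (0.022) and the deubiquitinase OTUD1 (0.026). Closest to PKP1, which had the largest mean change, were the sphingosine phosphate phosphatase SGPP2 (0.062), the Notch ligand JAG2 (0.062) and the glucocorticoid-responsive TSC22D3 (0.070). DSC3 and DSG3 were nearly as close to PKP1, at 0.093 and 0.097, with 16 and 22 genes closer of 12317, whereas PKP2 was at 0.96, with 5433 closer. These distances restate the values behind the fold changes and are no separate evidence that genes move together.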

How the data were processed

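The authors deposited 1 table of FPKM values for 9 libraries, per the file headers. DESeq2 1.4.5, RSEM 1.2.12, Bowtie2 2.2.5 and HISAT2 2.0.4 are listed, without a role, in the submitters' processing notes. The genome build is not given in the sources used here, nor whether reads were counted by strand. RefSeq lists overlapping genes for DSP (DSP-AS1), DSG2 (DSG2-AS1), DSC2 (DSCAS and LOC124904377), DSC3 (LOC124904345) and PKP2 (the pseudogene RPL35AP27), whose reads may not be told apart. Depth is unknown: 18.2% of the low values were whole multiples of a gene's smallest value within a tolerance of 0.1. Summed FPKM, which does not measure depth, ran from 394081 to 419025 per library, with 3 libraries per group.

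Gene identifiers were matched to RefSeq symbols (17748 of 18064 rows). The test took the 12317 genes that reached 1 FPKM in 3 or more libraries, on log2(FPKM + 1), which understates changes of low genes, with limma 3.58.1 in R 4.3.3 (group means over 9 libraries, eBayes with trend, two-sided). Adjusted p-values are over all of these genes. The 10 genes and the lists beside them were chosen with earlier results of these data known. Up to 4 genes per list are named, those with the smallest p in si1-BCLIN25, and PPL, EVPL, ZEB1, ZEB2 and the other marker genes were named after their values were seen. The permutation tests of the paralog ratios were added after the values were seen. Promoter windows are RefSeq's for GRCh38.p14. Alternatives were another pseudocount, filters, quantile normalization, no trend, only the groups compared, a replicate block and each library left out.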

Additional observations from a re-analysis of the deposited data

How the results depend on the processing

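Of the 10 genes, 8 were called in si1-BCLIN25 and 8 or 9 in si2-BCLIN25 under all 16 alternatives. The log2 fold changes ranged from 1.37 to 1.68 for DSG3, 1.29 to 1.66 for DSC3 and 1.49 to 1.88 for PKP1 in si1-BCLIN25, and from 1.36 to 1.67, 1.28 to 1.65 and 1.22 to 1.61 in si2-BCLIN25. The comparison of the siRNAs with each other depended most on the settings. Its count of called genes, 72, was 3 with no filter, 110 with a minimum of 5 FPKM, 13 without trend, 230 with only the 2 groups and 2 to 126 with a library left out, and its count of desmosome genes, 0, was 2 with the minimum of 5 FPKM, 1 after quantile normalization, 2 with only the 2 groups and 0 to 1 with a library left out. The cause was not tested. The sign turned for PKP2 in si1-BCLIN25 and for JUP between the siRNAs after quantile normalization (-0.047 and 0.031). Between the siRNAs it also turned with a library left out for DSG3 (-0.050 to 0.035), DSC3 (-0.025 to 0.021), JUP (-0.033 to 0.012) and PKP3 (-0.071 to 0.034), none of which was called.

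Whether same-numbered libraries share more than a number is not known. Their deviations from the group means correlated between -0.164 and 0.139, and not every library correlated best with its own number. With 3 libraries per group these correlations cannot show that the libraries were unpaired. With the replicate block 7665 and 7626 genes were called against si-NC, 8 and 9 of the desmosome genes among them, and 6 between the siRNAs, 0 of them desmosome genes. Depth is unknown, so no detection floor can be given for the genes near 0.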
